A study of Mus musculus with 8 samples.

Results

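Collagen genes were followed across 8 mouse mammary tumour cell samples. They were taken as every non-control probe whose RefSeq symbol, reached through the accession printed for the probe, consists of Col, a type number, the letter a and a chain number. The rule found 74 probes of 43 genes, out of 18883 gene symbols on the array. By the class of protein they encode, 11 genes were fibrillar collagens, 8 were basement membrane collagens and 24 were other collagens. The rule itself uses no measured value, though the family was chosen with earlier results of these data known.

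Collagens are matrix proteins built from chains that wind around one another into a stiff helix. Fibrillar types such as I, III and V assemble into the fibres of connective tissue, type IV forms the sheet under epithelia, and type VI forms beaded filaments between cells and fibres. In mammary tumours most fibrillar collagen is laid down by stromal fibroblasts, whereas epithelial cells also make basement membrane and anchoring collagens.

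All cells were PyMT mammary tumour cells of the FVB strain, carrying the polyoma middle T oncogene, and every group had received 50 uM camptothecin, a topoisomerase I poison, for 36 h. The line WTA, wild type in genotype, carried either a hairpin against Snd1 in the vector LKO1 with puromycin selection (Snd1 knockdown, 3 arrays) or the empty LKO1 vector (vector, 3 arrays). The line KO2, of the genotype MTDH-KO, carried the lentiviral construct LmPGK-mMtdh-ires2-GFP with wild-type Mtdh (1 array) or its spm13 form, W391D Mtdh, which is deficient in binding Snd1 per the series description (1 array), and was sorted for GFP. Each group thus stands for 1 line, and the labels do not say whether replicates were separate cultures, so each p-value rests on a spread between arrays that may be technical only. No untreated cells were analysed here.

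RNA of each sample was labelled with Cy5 and set against a reference RNA of 11 mouse cell lines in Cy3, so each value is a log2 ratio of sample to reference, and a difference of 1 between groups is 2-fold. The median Cy5 signal of an array was 158 to 363. Replicate arrays correlated at 0.978 to 0.992 over probes, and knockdown with vector arrays at 0.854 to 0.874. Knockdown replicate 1 and vector replicate 1 lay on 1 slide and the other 4 of these arrays on a second slide. The hairpin's target, Snd1, had log2 ratios of -3.23, -3.33 and -3.44 in knockdown and -2.49, -2.40 and -2.43 in vector arrays and fell (-0.90 ± 0.06 SE, limma adjusted p = 1.04e-05). The call threshold was missed by Mtdh (-0.12 ± 0.06, adjusted p = 0.118). The 9 mammary epithelial markers looked at were well above background on every array. In such RNA pools, fewer cells of a type and less RNA per cell cannot be told apart.

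Which collagen genes differ between tumour cells with less Snd1 and their vector controls was examined first. Of the 43 genes, 39 had a Cy5 signal flagged as well above background on 3 or more of the 6 arrays and were tested. Col10a1, Col6a5, Col6a6 and Col8a2 were not. At an adjusted p under 0.05, 14 of the 39 (35.9%) were higher in knockdown, where 23.6% of all 25684 tested features were higher. A further 9 (23.1%) were lower, where 21.1% of all features were lower. Of the 17233 tested features that have a gene symbol, 25.9% were higher and 25.6% lower. The other 16 did not pass the test. At least 2-fold differences were found for 4 higher genes, Col1a1, Col6a3, Col5a2 and Col17a1, which is 10.3% of those tested against 2.27% of all features. The 1 lower gene at this size was Col11a1, which is 2.56% against 1.51%. Among the features with a symbol the shares at this size were 2.87% higher and 1.98% lower. These counts rest on the brightest probe of each gene. By single probes, 17 of 62 tested collagen probes were higher and 16 lower, where 7915 and 7414 of all 33574 were. Averaging the probes of a gene gave 11 genes higher and 9 lower, where 6016 and 5315 of all features were. Median centring gave 10 higher and 9 lower, where 4820 and 6192 of all features were. With the mean of a gene's probes Col6a3 (0.63), Col17a1 (0.76) and Col11a1 (-0.60) were under 2-fold, and Col1a1 (1.102) and Col5a2 (1.68, 1 probe) were not. That mean takes in every probe of a gene, among them a Col6a3 probe too dim to test (above background on 2 of 6 arrays). The knockdown and vector values of 24 of the 39 (61.5%) did not overlap, which was so for 53.2% of all features.

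Counts were then taken by class. Of the 11 fibrillar collagens 6 were higher and 1 was lower, with a median log2 difference of 0.19, where the median of all features was 0.02. Of the 8 basement membrane collagens 2 were higher and 4 were lower, with a median of -0.27. Of these 2, and of the 14 higher genes in all, 1 is Col4a6, whose probes disagree in direction. Of the 20 other collagens tested 6 were higher and 4 were lower, with a median of 0.04. The shares higher were 54.5%, 25% and 30% in the order of these classes, where 23.6% of all features were. The shares lower were 9.09%, 50% and 20%, where 21.1% of all features were. The fibrillar median is the value of Col2a1, whose spread was wide, and it was 0.37 without vector replicate 1 and 0.29 without knockdown replicate 2. No test was made of the difference between classes.

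**Figure D1:**
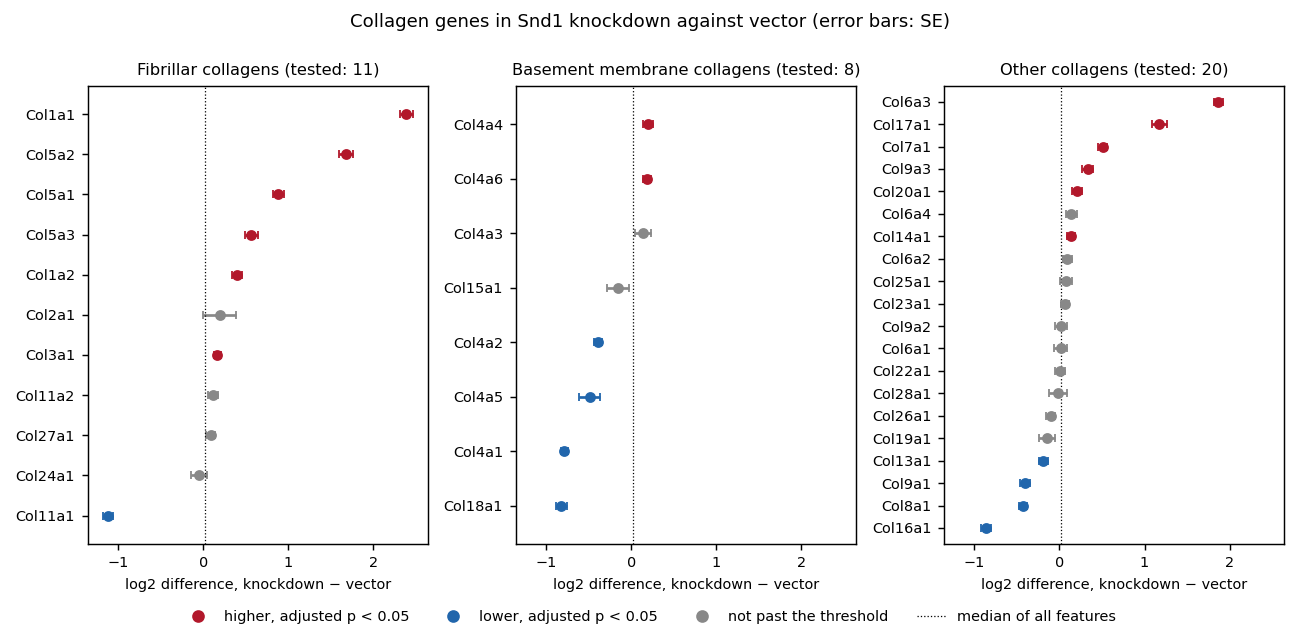
Log2 difference of knockdown minus vector for the 39 tested collagen genes, in 3 classes, with the SE as error bars and colour for the call at an adjusted p under 0.05. Col1a1 at 2.39 lies farthest to the right among the fibrillar genes and Col11a1 at -1.12 farthest to the left, and no basement membrane gene lies beyond 1 in either direction.

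Sequences before the annotated start were taken from RefSeq, build GRCm38.p6, for the genes with a difference of at least 2-fold that matched its promoter table, and for Col1a2, the partner chain of Col1a1. The table held 38 starts of 35 of the 43 genes. The 150 bases before each start are printed 5′ to 3′ on the strand of the gene, and capitals mark exact matches, on either strand, to the letters of 5 motifs that do not overlap one another in these stretches. The core promoter element was searched as TATAAA, and the element read by NF-Y as CCAAT. The element read by the Sp family was searched as GGGCGG, the element of the AP-1 factors as TGACTCA, and the E-box of the Snail and Zeb repressors as CACCTG.
Col6a3, chr1:90843972-90844121, minus strand: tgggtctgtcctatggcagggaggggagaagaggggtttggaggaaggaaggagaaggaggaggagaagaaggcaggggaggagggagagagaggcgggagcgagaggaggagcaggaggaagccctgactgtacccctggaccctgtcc
Col17a1, chr19:47692043-47692192, minus strand: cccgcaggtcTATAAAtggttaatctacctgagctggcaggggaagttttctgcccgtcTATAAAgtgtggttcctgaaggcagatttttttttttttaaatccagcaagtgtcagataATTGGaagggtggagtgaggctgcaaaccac
Col11a1, chr3:114030390-114030539, plus strand: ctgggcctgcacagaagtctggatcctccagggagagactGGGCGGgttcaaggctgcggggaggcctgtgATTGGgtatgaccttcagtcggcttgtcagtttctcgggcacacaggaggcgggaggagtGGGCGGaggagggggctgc
Col1a2, chr6:4505468-4505617, plus strand: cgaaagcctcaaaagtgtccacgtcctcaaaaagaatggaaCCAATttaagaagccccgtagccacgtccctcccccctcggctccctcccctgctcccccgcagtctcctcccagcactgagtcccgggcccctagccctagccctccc

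The stretch before Col17a1 held TATAAA at 140 to 135 and at 91 to 86 bases before the start, and the reverse of CCAAT at 31 to 27. That before Col11a1 held GGGCGG at 110 to 105 and again at 19 to 14 bases before the start, with the reverse of CCAAT between them. The Col1a2 stretch held CCAAT at 109 to 105, and the Col6a3 stretch matched none of the strings. Over the 38 collagen starts, GGGCGG was in 50% and over all 32851 starts in the table in 28.6%. The other shares were 10.5% against 7.57% for TATAAA, 21.1% against 24.5% for CCAAT, 2.63% against 2.84% for TGACTCA and 5.26% against 10.6% for CACCTG. A match describes letters and is no sign of a bound factor.

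Type I collagen, the main fibre of bone, skin and tumour stroma, is made of Col1a1 and Col1a2 chains. Col1a1 had log2 ratios of -4.15, -4.06 and -4.33 on the knockdown arrays and -6.54, -6.64 and -6.52 on the vector arrays. The groups lay far apart, and Col1a1 was 5.24-fold higher in knockdown (2.39 ± 0.07 SE, adjusted p = 1.89e-07). Its difference was 2.39 on each slide. Col1a2 had -4.74, -4.88 and -4.88 in knockdown and -5.21, -5.20 and -5.29 in vector. It rose by far less, 1.32-fold (0.40 ± 0.05, adjusted p = 0.000482), though without overlap between groups, and lost its call in 2 of 21 alternative analyses, among them scaling between arrays. Both chains stayed well below the reference RNA in every sample.

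Col3a1, which makes the fine fibres of soft tissue, had -5.04, -5.05 and -5.01 in knockdown and -5.22, -5.16 and -5.21 in vector. The difference was small, 1.12-fold (0.16 ± 0.04, adjusted p = 0.0137). The call was lost in 9 of 21 alternatives, one of them without vector replicate 3 (adjusted p = 0.0533), and the difference was 0.04 with median centring.

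The type V chains, which are incorporated into type I fibrils and limit their width, all rose. Col5a2 had -2.32, -2.34 and -2.40 in knockdown and -4.20, -4.03 and -3.88 in vector and was 3.21-fold higher (1.68 ± 0.08, adjusted p = 1.5e-06). Its vector values spread more widely than its knockdown values, and the slides gave 1.88 and 1.58. Col5a1 had -2.02, -2.07 and -2.20 in knockdown and -2.88, -3.03 and -3.03 in vector, a rise of 1.85-fold (0.88 ± 0.07, adjusted p = 1.57e-05). Col5a3 had -1.03, -0.95 and -1.18 in knockdown and -1.74, -1.52 and -1.60 in vector, a rise of 1.48-fold (0.57 ± 0.08, adjusted p = 0.000401). None of these values overlapped between groups.

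Col11a1, a minor fibrillar chain of cartilage that carcinomas can also express, went the other way. It had -0.06, -0.11 and -0.12 in knockdown and 0.92, 1.08 and 1.08 in vector and was 2.17-fold lower in knockdown (-1.12 ± 0.06, adjusted p = 1.83e-06). The vector cells were thus above the reference RNA and the knockdown cells close to its level. Its partner Col11a2 had -0.36, -0.27 and -0.38 in knockdown and -0.40, -0.55 and -0.42 in vector and missed the threshold (0.12 ± 0.06, adjusted p = 0.133). Col2a1, the main collagen of cartilage, had -3.68, -4.26 and -4.25 in knockdown and -3.89, -4.44 and -4.43 in vector. Replicate 1 of both groups, on slide 1, lay above the others. Without a block it missed the threshold (0.19 ± 0.19, adjusted p = 0.472), and with the replicate number as a block it passed (adjusted p = 0.00685). Col24a1 had -0.17, 0.22 and 0.15 in knockdown and 0.19, 0.06 and 0.11 in vector, with overlap between groups. Neither it (-0.05 ± 0.10) nor Col27a1 (0.09 ± 0.05) passed.

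**Figure D2:**
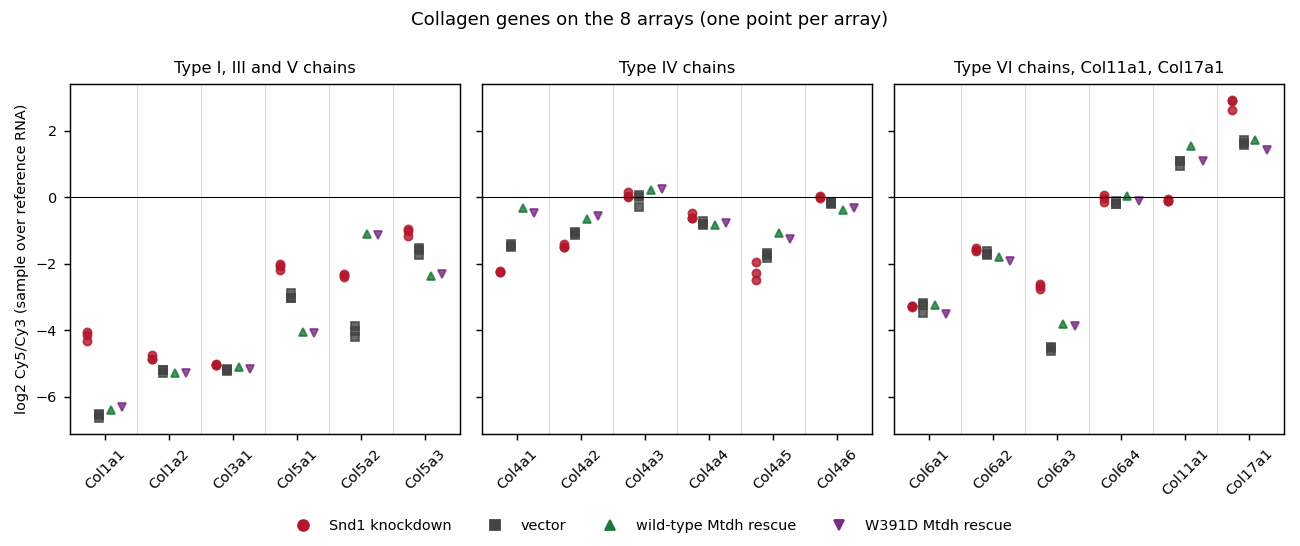
Log2 ratio of sample (Cy5) over reference RNA (Cy3) on the 8 arrays, 1 point per array, for chains of types I, III and V, of type IV, and of type VI with Col11a1 and Col17a1. The 3 knockdown points of Col1a1 lie between -4.33 and -4.06 and the 3 vector points between -6.64 and -6.52, while Col5a2 is highest in the rescue arrays at -1.10 and -1.13.

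Type IV collagen is the mesh of the basement membrane, and its most widespread form is made of Col4a1 and Col4a2. Col4a1 had -2.22, -2.26 and -2.25 in knockdown and -1.50, -1.40 and -1.46 in vector and fell 1.73-fold (-0.79 ± 0.04, adjusted p = 3.71e-06). Col4a2 had -1.50, -1.41 and -1.51 in knockdown and -1.14, -1.07 and -1.04 in vector and fell 1.31-fold (-0.39 ± 0.05, adjusted p = 0.000333). The groups of both chains were apart on both slides.

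The chains of the specialised type IV networks were divided. Col4a5 had -1.95, -2.28 and -2.50 in knockdown and -1.74, -1.67 and -1.84 in vector and fell (-0.49 ± 0.13, adjusted p = 0.0137). Its difference was -0.20 on slide 1, -0.63 on slide 2, and -1.43 by the log ratios of the scanner software. Col4a4 had -0.49, -0.62 and -0.64 in knockdown and -0.71, -0.84 and -0.80 in vector, a rise of 1.15-fold (0.20 ± 0.06, adjusted p = 0.0233) that lost its call in 8 of 21 alternatives, among them without knockdown replicate 1, vector replicate 2 or vector replicate 3 (adjusted p = 0.0564 to 0.0844), and was 0.08 with median centring. Col4a3 had -0.01, 0.15 and 0.03 in knockdown and -0.01, -0.30 and 0.07 in vector and did not pass (0.14 ± 0.10, adjusted p = 0.307).

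Col4a6 gave opposite answers by probe. Its brightest probe had 0.04, 0.00 and -0.03 in knockdown and -0.16, -0.18 and -0.20 in vector and was called higher (0.18 ± 0.04, adjusted p = 0.00817). A second probe had -1.95, -2.06 and -2.13 in knockdown and -0.64, -0.37 and -0.38 in vector, a difference of -1.58 ± 0.08 (adjusted p = 1.72e-06, adjusted over all probes), and a further probe gave -0.23 ± 0.06. The mean of the 3 probes was lower in knockdown (-0.55), so no direction is given for the gene.

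The other basement membrane collagens are Col15a1 and Col18a1, whose cleaved end is known as endostatin. Col18a1 had -0.54, -0.59 and -0.71 in knockdown and 0.12, 0.29 and 0.23 in vector and fell 1.77-fold (-0.83 ± 0.06, adjusted p = 1.96e-05). Its second probe gave -0.64 ± 0.05. Col15a1 did not pass (-0.15 ± 0.13, adjusted p = 0.398).

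Type VI collagen, the beaded filament that links cells to fibres, is assembled from Col6a1, Col6a2 and one larger chain, most often Col6a3. Only Col6a3 of the 4 tested chains passed by its brightest probe. Col6a3 had -2.76, -2.63 and -2.68 in knockdown and -4.62, -4.52 and -4.52 in vector and was 3.64-fold higher (1.87 ± 0.05, adjusted p = 1.3e-07). Col6a1 had -3.31, -3.26 and -3.26 in knockdown and -3.48, -3.18 and -3.23 in vector, and Col6a2 had -1.60, -1.55 and -1.64 against -1.76, -1.70 and -1.61. In both the groups overlapped, and neither passed (0.01 ± 0.08 and 0.09 ± 0.05, adjusted p = 0.904 and 0.199). Col6a4 had -0.04, 0.06 and -0.16 in knockdown and -0.12, -0.22 and -0.22 in vector and did not pass (0.14 ± 0.06, adjusted p = 0.119), though it did without knockdown replicate 3 (adjusted p = 0.0431). Its second probe was lower in knockdown (-0.35 ± 0.05, adjusted p = 0.000569).

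Among the collagens that tie epithelium to its basement membrane, both measured genes rose. Col17a1, a transmembrane collagen of the hemidesmosome, had 2.61, 2.92 and 2.89 in knockdown and 1.56, 1.72 and 1.61 in vector and was 2.26-fold higher (1.17 ± 0.09, adjusted p = 1.42e-05). Col7a1, which forms the anchoring fibrils beneath the basement membrane, had 2.99, 3.06 and 2.88 in knockdown and 2.48, 2.43 and 2.49 in vector and was 1.42-fold higher (0.51 ± 0.05, adjusted p = 0.000122). Both genes lay above the reference RNA on all 8 arrays. The other transmembrane collagens were Col13a1, which was lower (-0.19 ± 0.05, adjusted p = 0.0173), and Col23a1 and Col25a1, which did not pass (0.06 ± 0.05 and 0.07 ± 0.07). The call of Col13a1 was lost in 6 of 21 alternatives, including without knockdown replicate 2, knockdown replicate 3 or vector replicate 3 (adjusted p = 0.0545 to 0.0685), and its difference was -0.39 by the log ratios of the scanner software.

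Of the 8 fibril-associated collagens, which coat the surface of fibrils, 3 rose and 2 fell, where 23.6% and 21.1% of all features did. Col12a1 and Col21a1, of the same class, were not analysed here. Col16a1 fell most, from -1.52, -1.47 and -1.52 in vector to -2.28, -2.35 and -2.48 in knockdown, or 1.82-fold (-0.86 ± 0.06, adjusted p = 8.96e-06). The type IX chains, which decorate cartilage fibrils, did not go together: Col9a1 fell (-0.40 ± 0.06, adjusted p = 0.000762), Col9a3 rose (0.33 ± 0.07, adjusted p = 0.00378) and Col9a2 did not pass (0.02 ± 0.07, adjusted p = 0.863). By the log ratios of the scanner software the first of these was -1.20 and the second 0.64. Col20a1 (0.21 ± 0.06, adjusted p = 0.0229) and Col14a1 (0.14 ± 0.04, adjusted p = 0.0333) were called higher, by differences that lost their call in 6 and in 14 of 21 alternatives. Leaving out knockdown replicate 1, knockdown replicate 3, vector replicate 2 or vector replicate 3 ended both calls (adjusted p = 0.0582 to 0.125), and leaving out knockdown replicate 2 ended that of Col14a1 (0.0826). Col19a1 had 0.16, -0.05 and -0.15 in knockdown and 0.27, 0.04 and 0.08 in vector. Its groups overlapped, and it did not pass (-0.14 ± 0.09), though its adjusted p was 0.0389 once the replicate number was a block. Col22a1 did not pass (0.01 ± 0.06).

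Of the short-chain network collagens only Col8a1, a chain of vessel walls and of the cornea, was measured well enough to test. It had -2.87, -2.85 and -2.79 in knockdown and -2.42, -2.45 and -2.36 in vector and fell 1.34-fold (-0.43 ± 0.05, adjusted p = 0.000126). Col8a2 was well above background on none of the knockdown and 2 of the vector arrays, and Col10a1 on 1 of each. Col26a1 (-0.10 ± 0.05) and Col28a1 (-0.02 ± 0.10) did not pass. Col6a5 and Col6a6 were well above background on 2 and 1 of the 8 arrays.

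How far the result for a gene depends on the probe was examined for the 21 genes with more than 1 tested probe. Of these, 13 were called by their brightest probe. Another probe was called the same way for 6 of the 13, namely Col1a1, Col17a1, Col18a1, Col4a1, Col4a2 and Col8a1, and the opposite way for Col4a6. For the other 6, Col3a1, Col5a1, Col5a3, Col6a3, Col11a1 and Col16a1, no other probe was called. In 12 of the 13 the brightest probe lay farther from 0 than any other. For the 6 without another call, the other tested probe had a mean log2 brightness of 6.51 to 7.39. Their brightest probes had 8.2 to 12.5. Whether dimness narrowed the differences of the other probes was not tested.

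The 3 probes of Col1a1 gave 2.39, 0.72 and 0.20, all called higher. Col6a3 gave 1.87 by its brightest probe, -0.02 ± 0.08 by a second and 0.04 by a further one that was too dim to test. The second probes gave -0.09 ± 0.05 for Col11a1, -0.10 ± 0.07 for Col16a1, 0.12 ± 0.08 for Col5a1, 0.10 ± 0.05 for Col5a3 and 0.35 ± 0.07 for Col17a1. With the mean of a gene's probes the difference was 1.102 for Col1a1, 0.63 for Col6a3, 0.76 for Col17a1, 0.50 for Col5a1, 0.33 for Col5a3, -0.60 for Col11a1, -0.48 for Col16a1 and -0.49 for Col4a1. All 8 stayed called, and the mean takes in probes too dim to test. Col5a2 has 1 probe. Beside Col4a6 and Col6a4, probes differed in sign for Col6a3, Col11a2, Col19a1 and Col24a1. The probe sequences were not used here, so the part of each transcript that a probe reads is unknown.

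**Figure D3:**
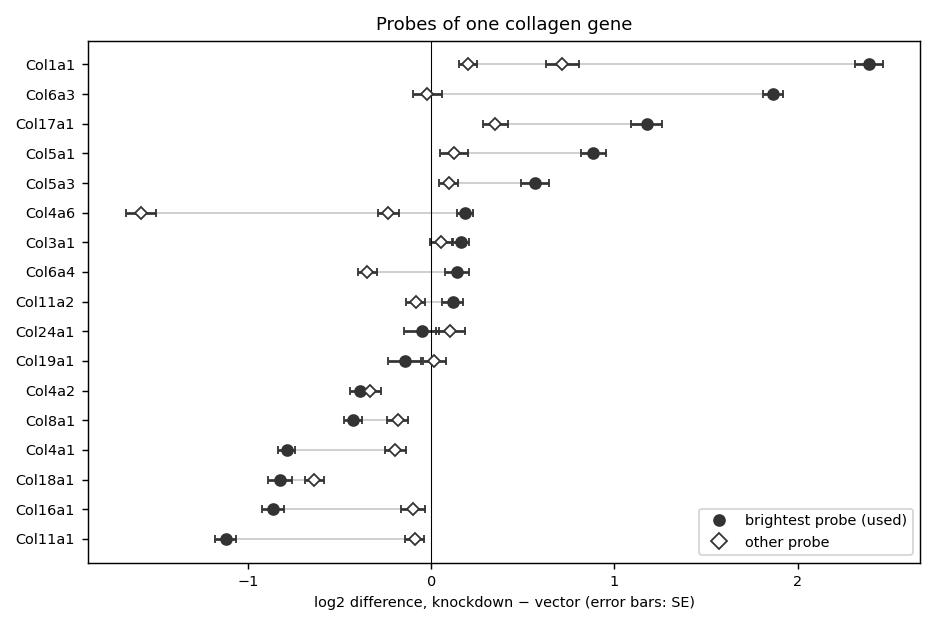
Log2 difference of knockdown minus vector by probe, with the SE as error bars, for collagen genes with more than 1 tested probe that were called or whose probes differed in sign. Filled circles are the brightest probe of a gene and open diamonds its other probes; the probes of Col4a2 lie close together at -0.39 and -0.33, and those of Col4a6 on both sides of 0.

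Several collagen genes are direct neighbours in the genome, and 8 such pairs were found in RefSeq. In 3 pairs both genes were called. Col4a1 and Col4a2, which are transcribed away from a shared start region, fell together (-0.79 and -0.39). Col3a1 and Col5a2 rose together, by very different amounts (0.16 and 1.68). Col4a6 and Col4a5 were called in opposite directions (0.18 and -0.49), with the disagreement between the probes of Col4a6 given above.

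Collagen chains are hydroxylated and glycosylated before they fold, and 13 genes of this step were tested. Of these, 6 rose and 1 fell (median 0.08), where 23.6% and 21.1% of all features did (median 0.02). Plod2, which hydroxylates lysines of the chain ends, had -1.38, -1.28 and -1.29 in knockdown and -2.72, -2.55 and -2.63 in vector (1.32 ± 0.06, adjusted p = 9.42e-07). P3h4, a cofactor of lysine hydroxylation, rose by 1.25 ± 0.09. The prolyl hydroxylase subunits P4ha2 and P4hb rose by 0.87 ± 0.05 and 0.67 ± 0.05.

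Of 13 genes of folding and secretion, 9 rose and 2 fell (median 0.31), where 23.6% and 21.1% of all features did. Fkbp10, a collagen chaperone of the endoplasmic reticulum, had the widest difference of this list. It was -0.63, -0.86 and -0.99 in knockdown and -4.56, -4.84 and -4.85 in vector (3.92 ± 0.11, adjusted p = 1.18e-07). Creb3l2, a transcription factor of secretory cells, rose by 1.00 ± 0.04, the coat protein Sec24d by 0.47 ± 0.05, and Mia3, which loads procollagen into transport carriers, by 0.46 ± 0.05, with 0.34 and -0.05 by its other probes (mean 0.25).

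Of 12 genes that trim or crosslink procollagen, 7 rose and 2 fell (median 0.17), where 23.6% and 21.1% of all features did. Pcolce, which enhances removal of the C-terminal end, had -1.67, -1.77 and -1.86 in knockdown and -3.95, -3.78 and -3.84 in vector (2.09 ± 0.07, adjusted p = 2.17e-07). Adamts2, which removes the other end, rose by 1.57 ± 0.07, with -0.0025 by a second probe and 0.78 as the mean of both. The crosslinking enzyme Loxl1 rose by 0.76 ± 0.06, and the transglutaminase Tgm2 fell (-0.33 ± 0.04). Lox, Tll1 and Tll2 were not analysed here.

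Of 8 collagen receptors and uptake genes, 3 rose and 2 fell (median 0.12), where 23.6% and 21.1% of all features did. The receptor kinase Ddr2 rose by 0.72 ± 0.06 and the uptake receptor Mrc2 by 0.61 ± 0.10, with 0.22 and 0.09 by their second probes (means 0.47 and 0.35). The matrix receptor Cd44 fell (-0.55 ± 0.06), as did the integrin Itga11 (-0.30 ± 0.06, or -0.55 by the log ratios of the scanner software). Itga11 lost its call with the Cy5 channel alone (adjusted p = 0.184). Ddr1 and Itga10 were not analysed here.

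Of the 6 tested proteinases that cleave collagen 3 rose and 3 fell. Mmp14, a collagenase of the cell surface, had -0.71, -0.84 and -0.94 in knockdown and -5.17, -5.30 and -5.35 in vector (4.45 ± 0.07, adjusted p = 1.26e-08), with 1.23 by a second probe and 2.84 as the mean of both. The lysosomal proteinase Ctsk rose by 3.54 ± 0.06 (5.38 by the log ratios of the scanner software) and the gelatinase Mmp2 by 1.86 ± 0.09. Ctsk was well above background on 2 of the 3 vector arrays, which limits how well the size of its rise is known. The collagenase Mmp13 fell from 4.33, 4.32 and 4.29 in vector to 2.25, 2.58 and 2.67 in knockdown (-1.81 ± 0.10, adjusted p = 3.06e-06). Against the counts of these lists stand 23.6% and 21.1% of all features called higher and lower. Over features with a gene symbol the shares were 25.9% and 25.6%.

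**Figure D4:**
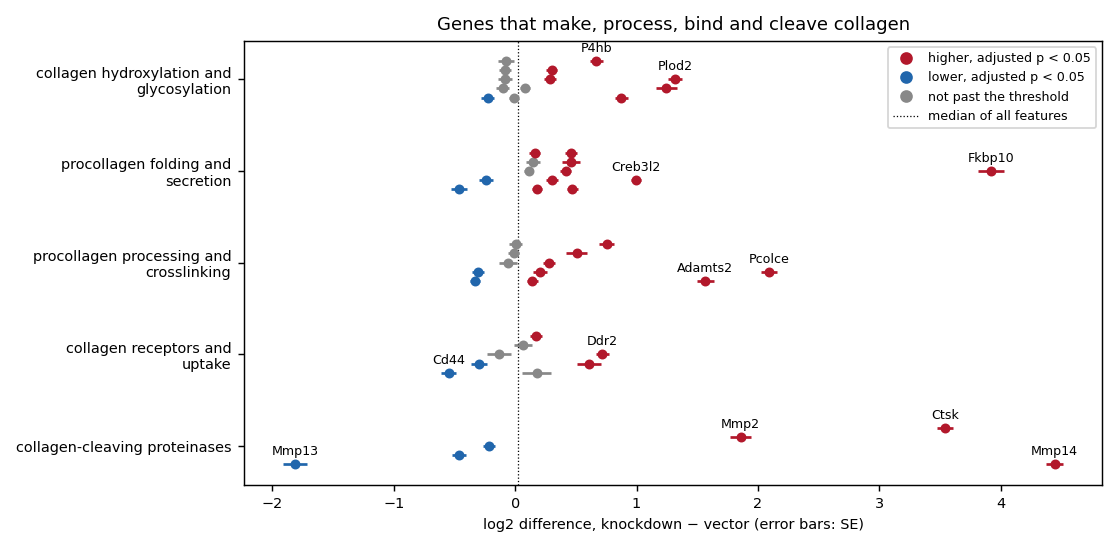
Log2 difference of knockdown minus vector with the SE for genes of 5 lists, 1 row per list, coloured by call, with some genes named and the median of all features as a dotted line. Mmp14 at 4.45, Fkbp10 at 3.92 and Ctsk at 3.54 lie farthest to the right and Mmp13 at -1.81 farthest to the left.

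Markers of other cell types were read beside the collagens. The shares to set beside each marker count are 23.6% higher and 21.1% lower over all tested features. Over features with a gene symbol they are 25.9% and 25.6%. Of 12 tested fibroblast markers 7 were higher in knockdown and none was lower, among them Postn (2.72 ± 0.04), Pdgfrb (2.44 ± 0.05) and Fbln2 (1.27 ± 0.06). The summed Cy5 signal of the 14 fibroblast markers was 13954 to 15790 on the knockdown arrays, 6260 to 6947 on the vector arrays, and 14748 and 16486 on the rescue arrays. The median log2 ratio over the same markers was -1.01 to -0.94 in knockdown, -2.02 to -1.87 in vector, and -2.48 and -2.17 in the rescue arrays, so for the rescue arrays the sum and the median lay on opposite sides of the vector values. Dcn, a defining fibroblast gene, did not pass (0.02 ± 0.06), and Fap was well above background on none of the knockdown arrays and 1 of the vector arrays. Of 8 pericyte and smooth muscle markers 4 were higher and 1 was lower, with Cspg4 at 3.28 ± 0.10 (1.62 by a second probe), Notch3 at 0.54 ± 0.08 and Rgs5 at 0.51 ± 0.06 (2.23 by the log ratios of the scanner software). Their summed signal was 11363 to 13510 in knockdown and 8677 to 11235 in vector.

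Of 9 mammary epithelial markers 6 were lower and 2 were higher, with Esrp1 at -1.36 ± 0.11, Krt14 at -1.15 ± 0.07 (-2.76 with the Cy5 channel alone) and Krt8 at -0.86 ± 0.05. The 2 higher were Krt19 (0.89 ± 0.23) and Cldn4 (0.34 ± 0.10). Their summed signal was 173705 to 187911 in knockdown and 225883 to 262918 in vector. Esrp1 was -0.53 and lost its call by the log ratios of the scanner software. The part of the 7 higher fibroblast and 6 lower epithelial markers in the collagen results was not tested.

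Of 6 endothelial markers 1 was higher, Kdr (0.67 ± 0.07), and 2 were lower, Emcn (-0.30 ± 0.05, or -0.81 by the scanner software) and Cdh5 (-0.54 ± 0.18). Tek and Erg were well above background on none of the 6 arrays. The summed endothelial signal was 1680 to 1755 in knockdown and 1673 to 1708 in vector. Of 6 leukocyte markers 2 were higher, Cd74 (0.23 ± 0.07) and Cd3e (0.14 ± 0.04), which were 0.15 and 0.04 with median centring. A further 1 was lower, Csf1r (-0.30 ± 0.08, or -0.13 as the mean of its probes), with summed signals of 1847 to 1953 and 1686 to 1990. Cd68 was not analysed here. Of 6 cartilage and bone markers Bglap, the bone protein osteocalcin, was higher (1.82 ± 0.06, or 2.76 by the scanner software) and Runx2 lower (-0.21 ± 0.05, or -0.39 with median centring), with summed signals of 8099 to 8655 and 8088 to 8690. Sox9, of the same list, was -0.04 ± 0.07 by its brightest probe, 1.59 by a second and -0.20 by a further one. Runx2 and Csf1r lost their calls with the Cy5 channel alone (adjusted p = 0.166 and 0.0563) and with scaling between arrays (0.107 and 0.0711). Kdr and Cdh5 lost their calls by the log ratios of the scanner software. Cdh5 was then -0.30, and -0.33 without knockdown replicate 1. It also lost its call without knockdown replicate 1 or 2 or vector replicate 2 or 3 (adjusted p = 0.0527 to 0.142), and Cd74 without knockdown replicate 1 or 3 or vector replicate 2 or 3 (adjusted p = 0.0691 to 0.0931). Cd3e lost its call without any 1 array other than knockdown replicate 3 (adjusted p = 0.0553 to 0.104).

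Whether the Snd1-binding mutant of Mtdh differs from wild-type Mtdh in collagen genes was read from 1 array each, so there is no replicate check and no test. The arrays also lay on different slides, so construct and slide cannot be told apart. Of 41 collagen genes well above background on at least 1 of these arrays, none was 2-fold apart. Of all 27028 such features 1 was, which is 0.0037%. The differences of W391D minus wild type ran from -0.47 (Col11a1, 1.08 against 1.55) to 0.14 (Col9a1, 0.03 against -0.11), and 19 of 41 lay above 0. The median was -0.04 over the collagens and -0.00062 over all features. Of the genes called in the knockdown, Col17a1 was 1.40 in W391D and 1.71 in wild type, Col1a1 was -6.32 in W391D and -6.39 in wild type, Col6a3 was -3.87 and -3.81, and Col4a1 was -0.47 and -0.32. Mtdh itself was -0.10 in W391D and 0.42 in wild type.

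The rescue line was last set against the vector cells, as a description only, since the line, its Mtdh genotype, the transgene, the selection and the slide differ together and cannot be told apart. A gene was counted where both rescue arrays lay outside the vector range and their mean was at least 2-fold from the vector mean. Of 41 measured collagen genes 2 were higher and 1 was lower, where 2.03% of all features were higher and 0.854% were lower. Col5a2 was higher, at -1.10 and -1.13 in wild-type and W391D rescue, by 2.92 over the vector mean. Col4a1 was higher by 1.06, at -0.32 and -0.47. Col5a1 was lower by 1.09, at -4.05 and -4.09. The second probes of both genes went the same way but lay closer to vector. For Col4a1 that probe had -0.47 and -0.55 in rescue and -0.94, -0.83 and -0.94 in vector. For Col5a1 it had -0.87 and -0.93 in rescue and -0.32, -0.50 and -0.49 in vector. The chains of type V thus differed in opposite directions between the lines.

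Beside the knockdown, with which this comparison shares the vector arrays, Col5a2 was 1.68 above vector in knockdown and 2.92 above it in the rescue line, Col5a1 was 0.88 above and 1.09 below, and Col4a1 was 0.79 below and 1.06 above. Col1a1 lay at -6.57 on average in vector and -6.35 in the rescue line, against -4.18 in knockdown. Col6a3 was -4.55 in vector and -3.84 in rescue, and Col17a1 was 1.63 and 1.56.

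**Figure D5:**
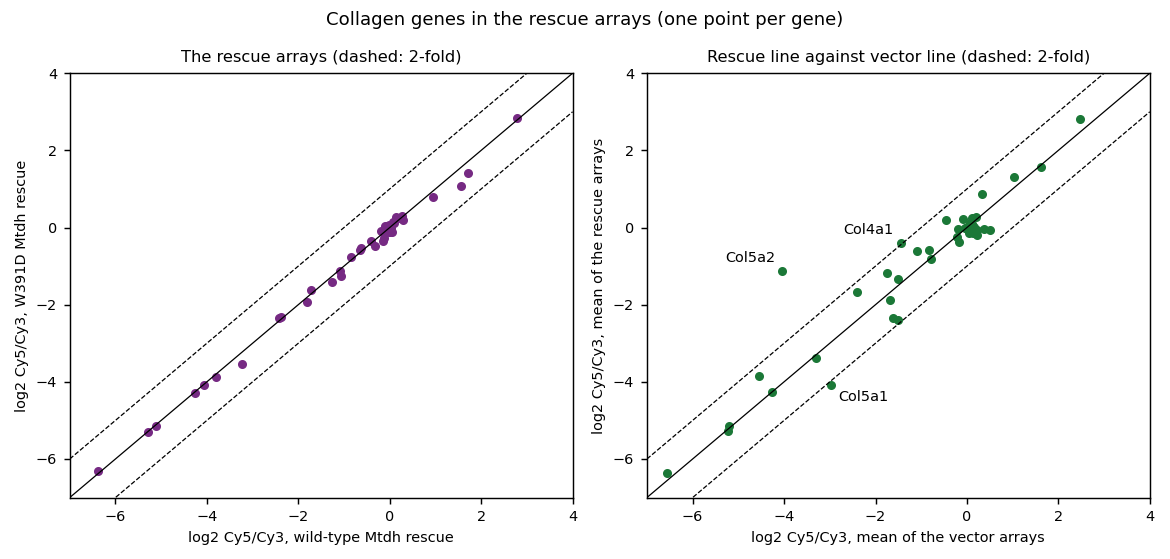
Left, log2 ratio of each of 41 collagen genes in W391D against wild-type Mtdh rescue. Right, the mean of the 2 rescue arrays against the mean of the 3 vector arrays, with dashed lines at 2-fold; all points on the left lie within the dashed lines, while Col5a2 lies far above them on the right.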

How the data were processed

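Gene expression was measured on 8 2-colour Agilent arrays. Per the file headers, the deposited intensity values are median pixel signals of each dye, extracted with Agilent Feature Extraction 11.0.1.1, whereas the submitters' processing notes name 9.5.3.1. Per the file headers, the deposited log10 ratios (Cy5 over Cy3) had the background subtracted and the dyes normalized by the same software. The deposited series table holds log2 ratios, which matched the log10 ratios of the same array (r = 0.988 to 1, column medians 0.03 to 0.15), so it was not centred. The software's flags were used for spots well above background and for outliers.

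The limma package (3.58.1, R 4.3.3) was used for background correction (normexp, offset 50) and loess within arrays, with control and outlier spots left out. Accessions were named through a RefSeq table (GRCm38.p6; the headers name an older build). The brightest probe stood for a gene. Features whose Cy5 was flagged well above background on 3 or more of 6 arrays were fitted with lmFit and eBayes, with Benjamini-Hochberg adjustment over all 25684, and called at 0.05. The arrays' number limits precision. The scripts were tested on simulated data.

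The collagen genes and all lists were chosen with earlier results of these data known. Values in every array are given for members called with a log2 difference of at least 1, for tested chains of types I, III, IV, V and VI, and where probes disagree in sign or by over 1; from each pathway list up to 4 and from each marker list up to 3 called genes with the smallest p are named, with other genes named where they were read after their values were seen. Same-numbered knockdown and vector arrays deviated together (r = 0.536, 0.252 and 0.262), which meets the threshold of 0.1 used to treat them as paired; differently numbered arrays of the second slide also did (r = 0.317 and 0.19) and arrays across slides did not (r = -0.311 to -0.425), so number and slide cannot be told apart. The main fit had no block all the same, so its p-values ignore any pairing. With a replicate block 15 collagen genes were higher and 10 lower, where 6991 and 5914 of all features were. Alternatives covered background correction, normalization, filters, probes, blocks, eBayes settings, a fold threshold and each array left out.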

Additional observations from a re-analysis of the deposited data

How the results depend on the processing

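The comparison of knockdown with vector was repeated under 21 alternatives, which are not independent. The software's log ratios and the series table hold nearly the same values. Adjusting over all probes kept the brightest probe of each gene, and no difference under 0.5 can be called against 0.5. Of the 23 called collagen genes 9 kept direction and call in every alternative, Col1a1, Col5a1, Col5a2, Col6a3, Col17a1, Col11a1, Col16a1, Col18a1 and Col4a1. For Col5a1, Col6a3, Col11a1 and Col16a1 no other probe was called. Direction reversed for 1 of the 23, Col4a6 (-0.55 with the mean of its probes). The 14 higher genes became 9 with the Cy5 channel alone, where the higher features went from 6074 to 3628. Tested against a log2 difference of 0.5, 5 were higher and 4 of the 9 lower genes were left. Over all features 1149 and 1041 were then called. With each array left out there were 10 to 14 higher and 8 to 9 lower. Over all features these counts were 5171 to 6046 and 4762 to 5371. With the replicate block 15 were higher and 10 lower, where 6991 and 5914 of all features were. Col2a1 and Col19a1 were added, and the block changed no other call of a collagen gene. The median of the basement membrane collagens, -0.27, was -0.35 with the Cy5 channel alone, -0.42 with the software's log ratios and with the deposited series table, -0.43 with the mean of a gene's probes, -0.36 with median centring and -0.39 with probes well above background on all 6 arrays, where fewer genes were tested. That of the fibrillar collagens was 0.16 to 0.37 with each array left out. The 3 genes apart between rescue line and vector became 6 with the software's log ratios and with the series table, and 1 with the mean of a gene's probes. The cause was not tested in any of these. Probes near background limit what can be said of Col10a1, Col6a5, Col6a6 and Col8a2.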
